A study of Homo sapiens with 6 samples.

Results

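The material is the list of H3K4me3 islands in endothelial cells derived from H1, an established line of human embryonic stem cells, in the library labelled Vc+ set against the library labelled Vc-. Vc is vitamin C in the series title. All stretches called as H3K4me3 islands on chromosomes 1 to 22 were taken, 21311 islands in Vc+ and 21583 in Vc-. They make up 42894 of the 61321 islands of the series on these chromosomes, the others being 9534 H3K27me3 islands in Vc+ and 8893 in Vc-. Both groups are described by their sample labels as GATA2+ endothelial cells of H1 genotype, and differ by the Vc label alone. The design text speaks of cells positive and negative for a GATA2 reporter, which no sample label does, and the dose and duration of Vc and the number of cultures are not given in the sources used here. The name of each of the 4 island lists carries the opposite Vc sign to its sample label, and the labels were followed. If the list names are the right ones, each direction below turns round. There was 1 library a condition, so no test between conditions could be made, and each difference is one between these libraries.

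H3K4me3 is laid down at gene starts by the SETD1 and MLL methyltransferases, which reach unmethylated CpG through CXXC domains of their own or of a partner, and it marks promoters that are active or held ready. Broad stretches of it are known from genes that define a cell's identity. Where it lies together with H3K27me3, the Polycomb mark, a promoter is called bivalent. Vitamin C keeps the iron of JmjC histone demethylases and of TET enzymes reduced. GATA2 and RUNX1 are transcription factors of the step in which endothelial cells of the embryo give rise to blood.

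Gene starts with the mark in both lists and in 1 list alone are shown first, because the number of CpG dinucleotides around a start runs through the comparison. The sequences are RefSeq promoters of build GRCh38.p14, from 250 bases before to 50 bases after the start, read 5′ to 3′ on the gene's strand, with each CG in capitals. GATA2 (chr3:128493152-128493451, minus strand) and RUNX1 (chr21:34888650-34888949, minus strand) carried H3K4me3 in both libraries, and these windows hold 29 and 40 CG. CAMK2B (chr7:44325545-44325844, minus strand, 46 CG) and TCFL5 (chr20:62861773-62862072, minus strand, 42 CG) hold the protein-coding starts with the highest scores among Vc+ islands that no Vc- island overlapped. HIF3A (chr19:46303369-46303668, plus strand, 9 CG) and SLC26A8 (chr6:36024592-36024891, minus strand, 14 CG) are their counterparts among Vc- islands. The CG counts of these examples do not stand for their groups, since starts in Vc+ alone and in Vc- alone both had a median of 13 CG.
GATA2: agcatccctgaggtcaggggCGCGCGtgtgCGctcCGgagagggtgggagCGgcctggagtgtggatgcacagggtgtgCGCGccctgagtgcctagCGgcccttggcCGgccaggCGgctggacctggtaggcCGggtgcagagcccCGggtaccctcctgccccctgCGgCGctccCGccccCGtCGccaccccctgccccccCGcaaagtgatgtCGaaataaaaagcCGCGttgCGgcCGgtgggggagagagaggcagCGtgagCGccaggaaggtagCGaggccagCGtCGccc
RUNX1: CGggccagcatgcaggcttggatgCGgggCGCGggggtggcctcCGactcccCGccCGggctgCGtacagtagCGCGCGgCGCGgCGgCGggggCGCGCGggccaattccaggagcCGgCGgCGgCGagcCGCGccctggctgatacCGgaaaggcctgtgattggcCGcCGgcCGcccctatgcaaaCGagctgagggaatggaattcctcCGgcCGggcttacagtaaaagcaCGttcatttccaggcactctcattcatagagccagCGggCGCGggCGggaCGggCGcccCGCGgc
CAMK2B: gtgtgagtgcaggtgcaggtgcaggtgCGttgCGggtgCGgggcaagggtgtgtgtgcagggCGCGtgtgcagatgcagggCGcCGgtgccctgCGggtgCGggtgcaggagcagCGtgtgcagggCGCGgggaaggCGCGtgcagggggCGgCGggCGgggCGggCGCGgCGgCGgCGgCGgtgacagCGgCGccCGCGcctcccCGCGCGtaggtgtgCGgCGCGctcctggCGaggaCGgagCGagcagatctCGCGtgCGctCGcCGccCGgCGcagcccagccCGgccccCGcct
TCFL5: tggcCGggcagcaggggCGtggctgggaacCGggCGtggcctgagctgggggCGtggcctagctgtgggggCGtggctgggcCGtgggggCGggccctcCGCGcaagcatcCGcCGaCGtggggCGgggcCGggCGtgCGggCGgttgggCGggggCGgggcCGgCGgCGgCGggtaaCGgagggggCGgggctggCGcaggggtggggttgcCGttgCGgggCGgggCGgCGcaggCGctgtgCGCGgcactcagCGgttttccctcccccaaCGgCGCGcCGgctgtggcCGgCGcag
HIF3A: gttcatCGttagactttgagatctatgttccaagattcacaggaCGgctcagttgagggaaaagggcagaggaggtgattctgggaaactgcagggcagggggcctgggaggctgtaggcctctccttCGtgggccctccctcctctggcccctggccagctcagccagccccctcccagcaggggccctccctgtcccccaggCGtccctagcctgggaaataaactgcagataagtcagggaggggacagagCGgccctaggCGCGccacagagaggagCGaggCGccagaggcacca
SLC26A8: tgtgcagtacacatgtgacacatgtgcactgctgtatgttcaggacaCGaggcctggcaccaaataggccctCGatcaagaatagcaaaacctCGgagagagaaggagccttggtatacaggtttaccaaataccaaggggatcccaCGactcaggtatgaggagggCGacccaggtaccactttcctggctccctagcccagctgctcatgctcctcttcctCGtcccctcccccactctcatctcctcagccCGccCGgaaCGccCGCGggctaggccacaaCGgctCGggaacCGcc

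The H3K4me3 landscape was largely the same in both libraries. Of the Vc+ islands, 18790 (88.2%, exact 95% interval 87.7 to 88.6) overlapped a Vc- island by at least 1 bp. Of the Vc- islands, 19097 (88.5%, 88.0 to 88.9) overlapped a Vc+ island. Without a match were 2521 Vc+ islands (11.8%) and 2486 Vc- islands (11.5%). These intervals cover counting error only. Measured over length, 36.2 Mb lay in both lists and 52.6 Mb in either, a Jaccard index of 68.8%. The shared length was 77.4% of the 46.8 Mb covered in Vc+ and 86.2% of the 42.0 Mb covered in Vc-.

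The islands present in 1 list were those with low scores. The score is the submitters' own value per island, which reached 309 below a top value of 1000, and it was used to rank islands within a list. Each list was split by score into 10 deciles of nearly equal size. In the 5 highest deciles, 1 of the Vc+ islands and 0 of the Vc- islands lacked a match. The share with a match was 98.4% in Vc+ and 97.9% in Vc- in decile 7, 88.4% and 86.5% in the next, 63.1% and 61.7% in the one after, and 31.4% and 39.2% in the lowest. All 566 Vc+ islands and all 816 Vc- islands at the top score had a match, and 457 islands of each list were at the top score in both. Among islands matched to a single partner in both directions, the ranks by score in both lists had a Spearman correlation of 0.92 over 17815 islands, as a description without a p-value. Such an island moved by a median of 6.41 percentage points of rank between the lists, and 95% of them by up to 21.4 points.

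**Figure D1:**
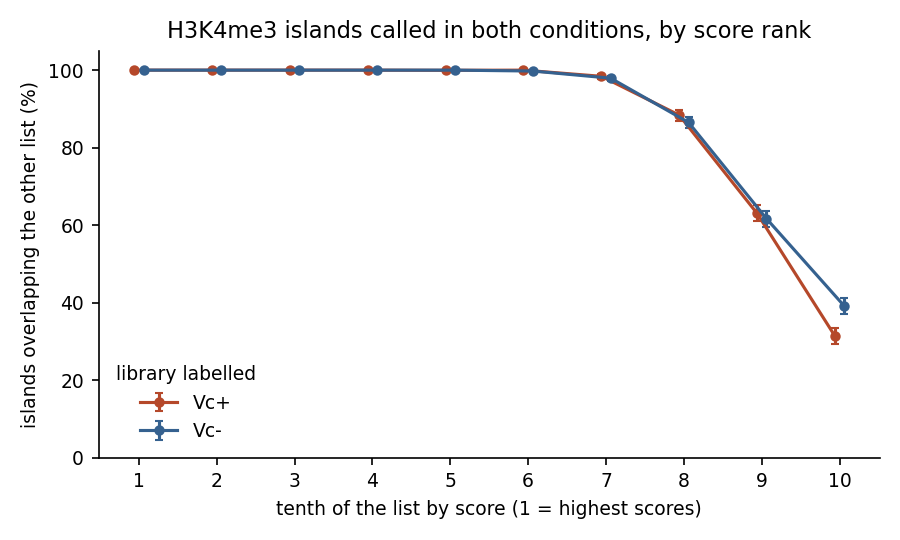
Share of H3K4me3 islands that overlap the other list (vertical axis, percent) in each decile of the list by score (horizontal axis, 1 is the highest), for the library labelled Vc+ and the library labelled Vc-. Bars are exact 95% intervals for counting error. Both lines stay at or near 100% through decile 6 and end at 31.4% in Vc+ and 39.2% in Vc-.

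Islands without a match were also narrow. Their median width was 1200 bp in Vc+ and 800 bp in Vc-, against 2000 bp and 1800 bp for islands with a match. They held 6.73% of the covered length in Vc+ and 5.42% in Vc-. A neighbour in the other list within 1 kb was found for 13.7% of the unmatched Vc+ islands and 9.29% of the unmatched Vc- islands. No island of the other list lay within 10 kb for 1302 of them (51.6%) in Vc+ and 1534 (61.7%) in Vc-. Most of the length that differed lay at the borders of matched islands. Of 10.6 Mb in Vc+ alone, 7.45 Mb belonged to islands with a match, and 6.78 Mb of that lay outside the partner at islands paired one to one. Of 5.79 Mb in Vc- alone, 3.51 Mb belonged to islands with a match, and 3.19 Mb of that lay at one-to-one pairs.

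Vc+ islands were slightly wider. The median width was 1800 bp in Vc+ (quartiles 1200 and 2800) and 1600 bp in Vc- (1000 and 2400). Islands of at least 5 kb numbered 945 in Vc+ and 647 in Vc-, and those of at least 10 kb numbered 54 in Vc+ and 35 in Vc-. Among the 17815 uniquely matched islands, 9647 (54.2%) were wider in Vc+, 4976 (27.9%) were wider in Vc- and 3192 (17.9%) were equal. The median log2 ratio of Vc+ to Vc- width was 0.12 (quartiles -0.12 and 0.36). The median difference was 200 bp, the step in which all island widths come. Widths within 400 bp of each other were found for 12125 of these islands (68.1%), and the same border on both sides for 1691. An island was at least 2 times as wide in Vc+ at 827 (4.64%) and in Vc- at 290 (1.63%).

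The difference in width was spread over the genome and over most width classes. On each of the 22 chromosomes more islands were wider in Vc+ (50.8 to 57.2%) than in Vc-, and the covered length in Vc+ was 1.08 to 1.14 times that in Vc-. Islands with a mean width up to 1 kb had a median log2 ratio of 0.00, with 40.7% wider in Vc+ and 30.2% wider in Vc-. Those over 3 to 5 kb had a median log2 ratio of 0.13, with 65.3% wider in Vc+ and 24.1% wider in Vc-. Islands that overlapped H3K27me3 in both conditions had a median log2 ratio of 0.13, and those that overlapped it in neither had 0.12. Some stretches were split in 1 list and joined in the other. Of the Vc+ islands 532 overlapped 2 or more Vc- islands, and of the Vc- islands 249 overlapped 2 or more Vc+ islands. Depth and read counts are not given in the sources used here, and their part in the width difference was not tested.

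**Figure D2:**
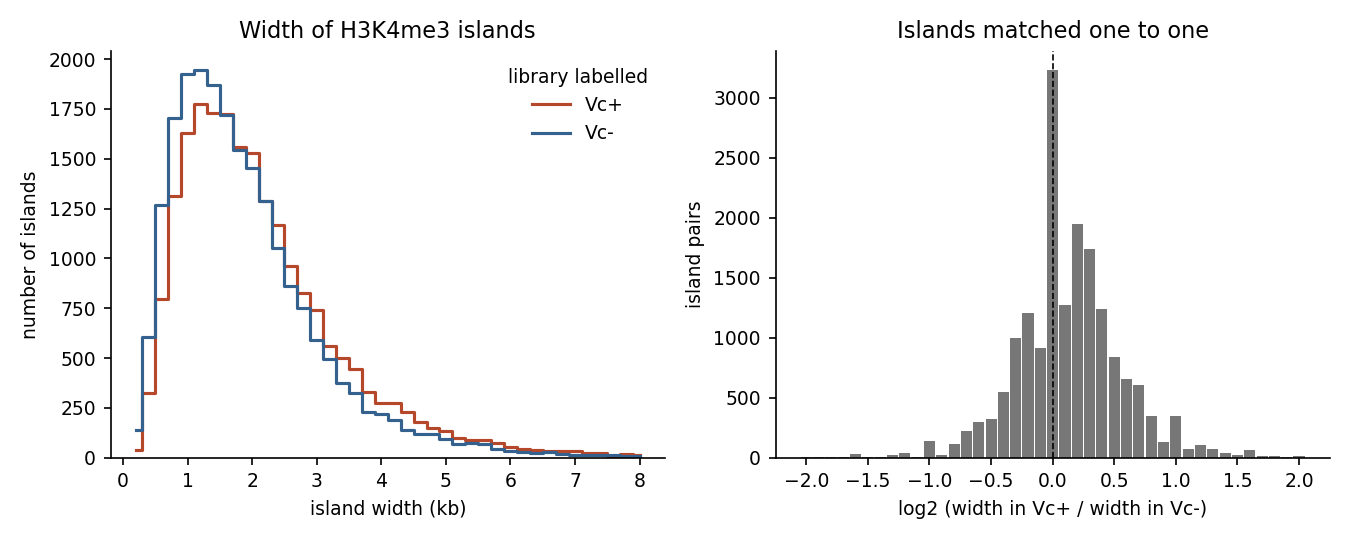
On the left, number of H3K4me3 islands (vertical axis) by width in kb, in steps of 200 bp, for Vc+ and Vc-, with 127 Vc+ and 91 Vc- islands wider than the axis. On the right, number of uniquely matched island pairs by log2 ratio of Vc+ to Vc- width, with 38 pairs above and 7 below the axis. The bar at 0 holds the equal widths, and the pairs to its right, wider in Vc+, outnumber those to its left.

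The additional length lay more often within the gene than upstream of it. At 7270 uniquely matched islands with a single listed protein-coding start inside, the mark reached a median of 1359 bp downstream of the start in Vc+ and 1233 bp in Vc-. Upstream it reached 754 bp in Vc+ and 707 bp in Vc-. The downstream border lay farther out in Vc+ at 51.0% of these islands and in Vc- at 24.0%. The upstream border did so in Vc+ at 39.9% and in Vc- at 26.8%. The mean difference, Vc+ minus Vc-, was 164 bp downstream and 63.9 bp upstream.

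Most islands lay at gene starts in both conditions. A protein-coding start, or either span end of a gene without a listed start, taken with 1 kb on either side, was overlapped by 61.7% of Vc+ islands (61.1 to 62.4) and 60.9% of Vc- islands (60.2 to 61.5). The start of another gene was overlapped by 4.01% and 4.04%. Inside protein-coding genes and away from starts lay 15.3% of Vc+ islands and 14.9% of Vc- islands, and outside protein-coding and long non-coding RNA genes lay 15.5% and 16.5%. The share at protein-coding starts was 94.8% in Vc+ and 94.9% in Vc- in the highest decile by score, and 5.95% and 6.54% in the lowest.

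Unmatched islands had other locations than matched ones. At protein-coding starts lay 11.8% of unmatched Vc+ islands and 7.92% of unmatched Vc- islands, against 68.5% and 67.7% of matched islands. Inside protein-coding genes lay 40.3% of unmatched islands in Vc+ and 33.5% in Vc-. Outside genes lay 39.7% in Vc+ and 47.2% in Vc-. Low score goes with location, so the lowest 25% of each list by score was read alone. There, 10.0% of unmatched and 20.9% of matched Vc+ islands lay at protein-coding starts, and 7.18% of unmatched and 25.3% of matched Vc- islands did. Within that 25% the matched share and the share at starts both still fell with score, so score was not held constant. Read by place, 97.7% of Vc+ islands at protein-coding starts had a match and 98.5% of Vc- islands did, against 68.7% and 74.0% inside protein-coding genes and 69.7% and 67.0% outside genes.

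**Figure D3:**
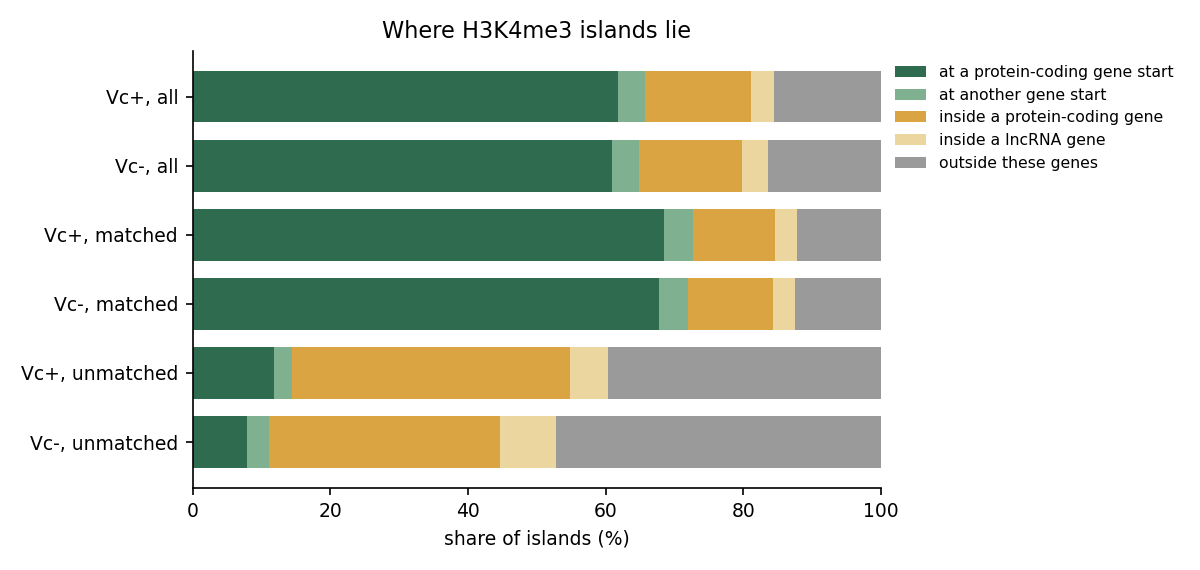
Share of H3K4me3 islands (horizontal axis, percent) by location, for all islands, those overlapping the other list (matched) and those not doing so (unmatched), with Vc+ above Vc- in each pair. Protein-coding gene starts take 61.7% and 60.9% of all islands, and 11.8% and 7.92% of the unmatched ones.

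Overlap with H3K27me3 of the same condition was found for 25.3% of Vc+ islands (24.7 to 25.8) and 22.8% of Vc- islands (22.2 to 23.4). Among unmatched islands it was 30.2% in Vc+ (28.4 to 32.1) and 20.9% in Vc- (19.3 to 22.6). Read against the H3K27me3 list of the other condition, the unmatched islands gave 26.8% in Vc+ and 20.6% in Vc-. The Vc+ H3K27me3 list is also the longer one, with 9534 islands against 8893. Unmatched Vc+ islands are wider than unmatched Vc- islands as well, with medians of 1200 bp and 800 bp. The part of list length and island width in these shares was not tested.

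Unmatched islands were frequent near large gene-free gaps. Within 5 Mb of the largest gap between genes, where centromeric and other repeats lie on many chromosomes, were 27.8% of unmatched Vc+ islands and 28.9% of unmatched Vc- islands, against 7.92% and 7.99% of matched islands. On chromosome 6, 86.8% of Vc+ islands and 83.0% of Vc- islands had a match, and 91.6% and 88.7% did once this zone was left out. Chromosome 21 had the lowest shares, 80.7% in Vc+ and 79.5% in Vc-. They hardly moved there, to 81.4% and 79.3%, once this zone was left out.

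The mark followed the CpG content of the start. Of 21041 protein-coding starts with a listed promoter, those with 0 to 4 CG in the 300 bases were marked in 11.7% of cases in Vc+ and 11.4% in Vc-, and those with 30 or more in 98.2% and 97.9%. Starts marked in both libraries had a median of 27 CG, and starts marked in neither had 4. Starts marked in Vc+ alone and in Vc- alone both had a median of 13. A CpG-rich promoter, with an observed to expected CpG ratio of at least 0.6 and at least 50% G and C, was found at 42.8% of the 257 starts in Vc+ alone (36.7 to 49.1) and 40.2% of the 169 in Vc- alone (32.8 to 48.0). It was found at 82.8% of starts marked in both, 6.54% of those marked in neither and 60.3% of all. The letters TATAAA, read on the gene's strand in the 50 bases before the start, occurred at 4.28% of starts in Vc+ alone, 5.92% in Vc- alone, 1.60% in both, 7.33% in neither and 3.29% of all. A match of these letters is a description of the window and not a site.

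**Figure D4:**
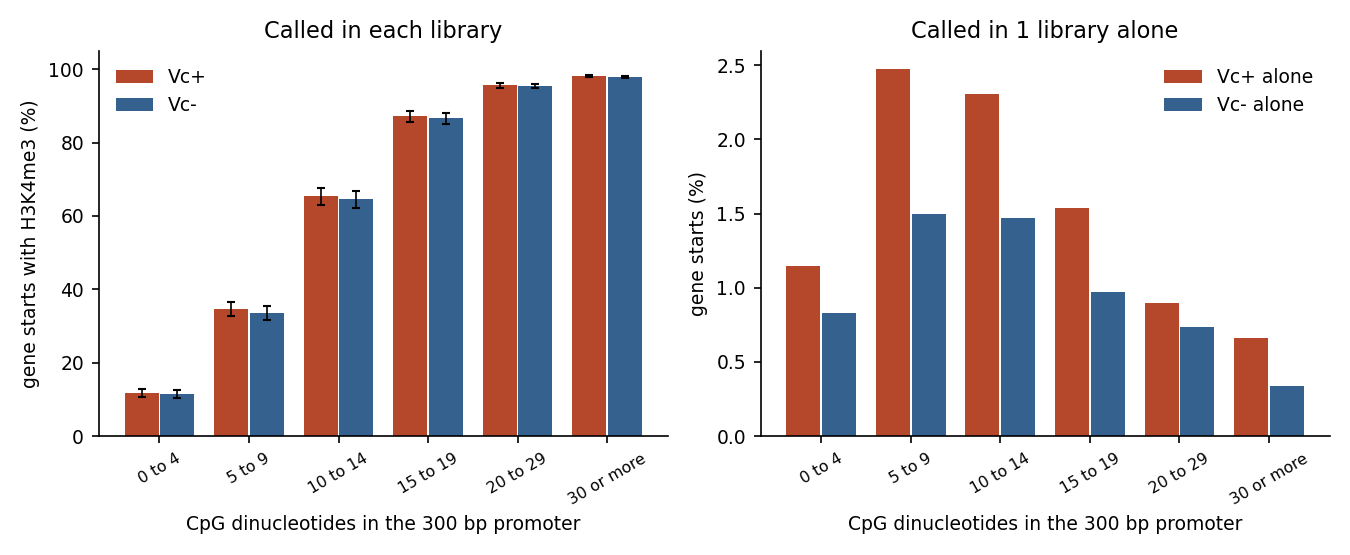
Protein-coding gene starts by the number of CpG dinucleotides in the 300 bp promoter (horizontal axis). On the left, percent of starts with an H3K4me3 island in Vc+ and in Vc-, with exact 95% intervals for counting error, going up from 11.7% and 11.4% to 98.2% and 97.9%. On the right, percent of starts called in Vc+ alone and in Vc- alone, without error bars, which is highest at 5 to 9 CG, 2.47% and 1.5%.

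At the level of genes, H3K4me3 was called at 13854 of 19126 protein-coding genes in Vc+ (72.4%) and 13771 in Vc- (72%). It was called in both libraries at 13625 genes (71.2%), in Vc+ alone at 229 (1.2%), in Vc- alone at 146 (0.763%) and in neither at 5126 (26.8%). An island of the other library within 10 kb was found for 100 of the 229 and 60 of the 146. The islands at genes called once had a median score of 13.8 in Vc+ and 14.8 in Vc-, against 124 and 134 at genes called in both. At genes called in both, the marked length around the start had a median of 2.4 kb in Vc+ and 2.2 kb in Vc-. It was longer in Vc+ at 57.8% and in Vc- at 26%, with a median log2 ratio of 0.13. It was at least 2 times as long in Vc+ at 296 genes (2.17%) and in Vc- at 76 (0.558%). Against these shares the gene lists below are read. Of the 19126 genes, 15101 had a listed start, and the 4025 without one were read at both ends of their span, FLI1, LMO2, NFE2, HBA2, GATA4, VWF and CD93 among them. The excess of genes called in Vc+ alone turned round, to 114 in Vc+ against 325 in Vc-, when the Vc+ list was reduced by score to equal covered length.

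GATA2, which the cells were labelled positive for, and RUNX1 had the mark in both libraries. GATA2 (chromosome 3, 128479422 to 128493201, minus strand) was covered over both listed starts and most of the gene body by 1 island at the top score, 12 kb in Vc+ (128481801 to 128493800) and 11.8 kb in Vc- (128482001 to 128493800). The start of RUNX1 at 34888699 on chromosome 21 lay in an island of 10.6 kb in Vc+ (34881401 to 34892000) and 10.2 kb in Vc- (34881601 to 34891800), both at the top score. An additional Vc+ island of 1.6 kb (34845401 to 34847000) lay inside RUNX1 with a score of 10.8 and no Vc- partner. It ranked within the top 86.2% of its list, in decile 9, where 63.1% of Vc+ islands had a match.

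Blood regulators were mostly marked in both conditions. Of 28 measured transcription factors and cofactors of blood development, 25 were called in both. KLF1 was called in Vc+ alone, NFE2 in Vc- alone and LMO2 in neither. Of the 28, 6 had no listed start and were read at both ends. SPI1 was called only from islands at the lower end of its span, 0.6 kb in Vc+ and 1 kb in Vc-, with none at the upper end. FLI1, an ETS factor of endothelium and blood, had 15.8 kb in Vc+ and 15.4 kb in Vc-. MEIS1, a homeodomain cofactor of HOX proteins, had 13.2 kb in Vc+ and 15 kb in Vc-, and MECOM, a zinc finger factor of blood stem cells, had 11 kb and 12.4 kb. TAL1, a bHLH factor required for blood formation, was covered by 1 Vc+ island of 11.8 kb and by 2 Vc- islands that sum to 9.6 kb. These examples go in both directions. The median log2 ratio of length over the 25 genes was 0.11, near the 0.13 of all genes called in both, with 17 longer in Vc+ and 6 longer in Vc-.

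The calls differed for KLF1 and NFE2. KLF1, the erythroid Krüppel-like factor, had a Vc+ island of 1.6 kb at 0.6 kb from its start, and a Vc- island at 1 kb that the 1 kb window just missed. NFE2, of the megakaryocyte and erythroid lineages, had a Vc- island of 1.0 kb with a score of 7.98, and the nearest Vc+ island lay at 6.71 kb. LMO2, the bridging protein of the TAL1 complex, has no listed start and no island at either end of its span. Inside the gene both libraries had an island, 5.6 kb in Vc+ and 7.0 kb in Vc-.

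Markers of mature blood cells had little H3K4me3. Of 27 measured markers 7 were called in both, FCER1G and LAPTM5 in Vc+ alone and 18 in neither. Of the 27, 12 had no listed start and were read at both ends. The leukocyte gene PTPRC, the integrins ITGA2B and ITGAM, the globins HBB, HBG1 and HBE1, and MPO had no island at their starts or span ends in either library. Besides CD34 and KIT, the genes called in both were CD4, HBA1, CD44, CORO1A and VAV1. The call of CD4 came only from an island 0.401 kb beyond the upper end of its span in both libraries, with none at the lower end. CD34, which endothelium and blood progenitors share, had 5.2 kb in Vc+ and 6.0 kb in Vc-, and KIT, the receptor of stem cell factor, had 3.6 kb and 3.2 kb. FCER1G, a signalling chain of immune receptors, had a Vc+ island of 1.0 kb with a score of 7.42. LAPTM5, a lysosomal membrane protein of blood cells, had one of 2.0 kb with a score of 20.4.

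Most endothelial markers carried H3K4me3 in both libraries. Of 26 endothelial genes, 24 were marked in Vc+ (92.3%) and 23 in Vc- (88.5%), 22 of them in both. The called share alone does not set them apart from neural genes, of which 90% were called in Vc+ and 90% in Vc-. The endothelial stretches had a median length of 5.2 kb in Vc+ and 4.3 kb in Vc-, against 2.6 kb and 1.6 kb at neural genes and 2.4 kb and 2.2 kb over all genes. Length is not particular to them either. Cardiac genes had 7.1 kb and 6 kb, blood regulators 4.6 kb and 3.8 kb, and housekeeping genes 4.2 kb and 3.3 kb. Of the 26, 12 had no listed start and were read at both ends. KDR, the main VEGF receptor, had 13.2 kb in Vc+ and 12 kb in Vc-. FLT1, its decoy relative, had 10.4 kb and 10.0 kb, and SOX7, an endothelial SOXF factor, had 10.4 kb and 9.0 kb. The junction gene PECAM1 had 5.4 kb in Vc+ and 2.8 kb in Vc-, the cadherin CDH5 had 4.8 kb and 5.8 kb, and the angiopoietin receptor TEK had 7.2 kb and 6.8 kb. Longer in Vc+ were 16 of the 22, and longer in Vc- were 4, with a median log2 ratio of 0.14 against 0.13 over all genes.

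The endothelial genes with the strongest contrast had short stretches. EMCN, an endothelial sialomucin, had 2.4 kb in Vc+ and 1.2 kb in Vc-, and ROBO4, an endothelial guidance receptor, had 2.0 kb and 1.0 kb. They are the 2 of 22 at least 2 times as long in Vc+, and 0 were so in Vc-. Length and rank by score went opposite ways at EMCN, which had a score of 14.6 in Vc+ (within the top 81.2% of the list) and 43.0 in Vc- (top 62.6%). VWF, the platelet-binding glycoprotein of endothelium, had a Vc+ island of 2.2 kb with a score of 9.49, and the nearest Vc- island lay at 2.88 kb. CD93, an endothelial lectin-like receptor, had a Vc+ island of 0.8 kb with a score of 13.6, with a Vc- island at 1.72 kb. ARHGEF15, a guanine nucleotide exchange factor of endothelium, had a Vc- island of 2.0 kb with a score of 12.6, with a Vc+ island at 3.29 kb. The adhesion molecule ICAM2 had none. In bulk chromatin, fewer cells carrying the mark and less mark per cell cannot be told apart.

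**Figure D5:**
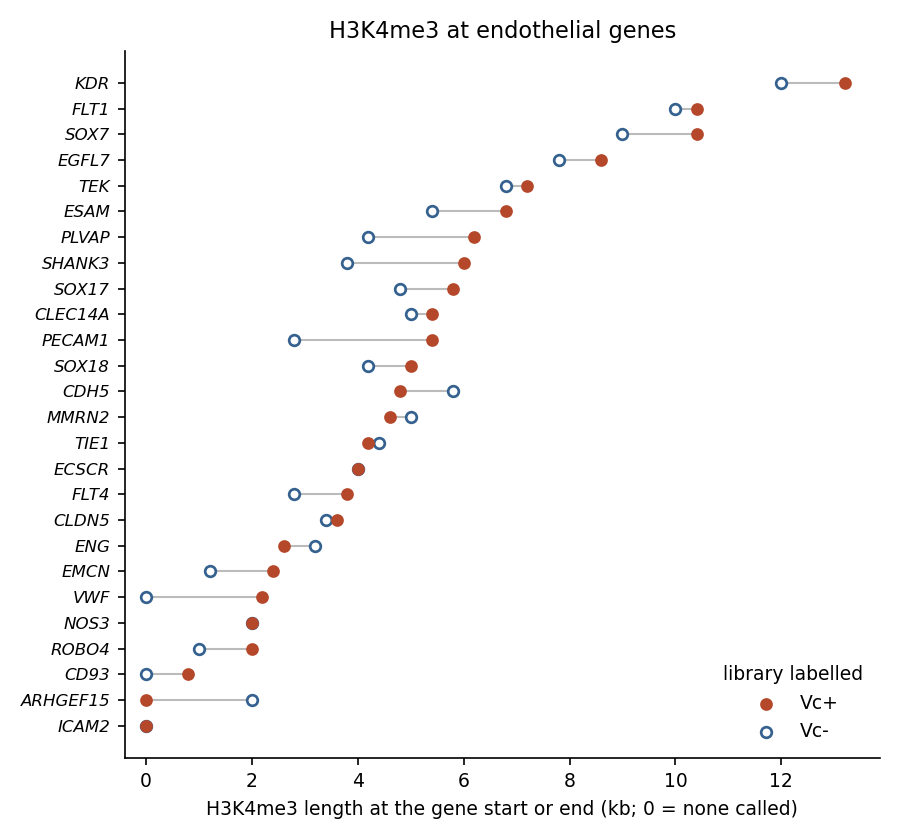
H3K4me3 length at the gene start, or at either end of the 12 genes without a listed start, in kb (horizontal axis) for each of 26 endothelial genes (vertical axis, ordered by Vc+), with a filled point for Vc+ and an open point for Vc-, 1 library each. KDR is at the top with 13.2 kb and 12 kb, and VWF, CD93 and ARHGEF15 have a point at 0 in 1 library.

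Arterial and venous genes were called alike. Of 18 arterial and Notch genes 17 were called in both and NOTCH4 in neither, so no call differed. NOTCH4 lies between HLA-F and TAPBP on chromosome 6, where 48.6% of 140 genes were called in neither, against 26.8% of all genes. DLL4, the Notch ligand of arterial endothelium, had 14.8 kb in 3 islands in Vc+ and 17.8 kb in 1 island in Vc-. The arterial ligand EFNB2 had 6.8 kb and 7.6 kb, and the Notch target HES1 had 7.2 kb and 6.4 kb. Of 10 venous and lymphatic genes 8 were called in both and 2, LYVE1 and STAB2, in neither. Of those 8, 7 were longer in Vc+ and 0 in Vc-, with a median log2 ratio of 0.18 against 0.13 over all genes. NR2F2, the venous nuclear receptor, had 5.4 kb in Vc+ and 4.2 kb in Vc-, and the semaphorin and VEGF receptor NRP2 had 8.4 kb and 7.4 kb.

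Genes of other lineages were partly marked in both libraries. Of 24 mesenchymal and mural genes, 15 were called in both, CSPG4 in Vc+ alone and COL3A1 in Vc- alone, and PDGFRB, DES, LUM and DCN were among the 7 in neither. Of 16 cardiac genes, the 10 transcription factors were called in both, and the contractile and secreted genes TNNT2, MYH6, MYH7, MYL7, NPPA and NPPB in neither. GATA6 had 14.2 kb in Vc+ and 12.6 kb in Vc-, and GATA4, of heart and endoderm, had 7.0 kb and 3.8 kb at the lower end of its span. Of 16 pluripotency genes 10 were called in both, UTF1 in Vc+ alone and CRIPTO in Vc- alone, and NANOG, POU5F1, DPPA2 and DNMT3B in neither. POU5F1 lies in the stretch of chromosome 6 given above for NOTCH4, where missing calls were frequent. Of 15 endoderm genes 10 were called in both and 5 in neither, ALB, AFP and TTR among these. Of 17 genes of liver, kidney, pancreas, thyroid and skin, 16 were called in neither, with CYP2E1 in Vc- alone.

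Neural genes had the highest median log2 ratio of the 15 named lists for which one could be formed. Of 20 measured genes, 17 were called in both, NEUROD1 in Vc+ alone, SIX3 in Vc- alone and MAP2 in neither. Their median length was 2.6 kb in Vc+ and 1.6 kb in Vc-, with a median log2 ratio of 0.36. PAX6, the paired-box factor of eye and forebrain, had 3.6 kb in Vc+ and 1.6 kb in Vc-. POU3F2, a POU factor of neurons, had 4.2 kb and 1.6 kb, and LHX2, a LIM factor of forebrain, had 1.8 kb and 0.8 kb. The proneural gene NEUROG1 had 2.4 kb and 1.2 kb, and OLIG2, of motor neurons and oligodendrocytes, had 1.2 kb and 0.6 kb. These 5 of 17 were at least 2 times as long in Vc+, and 0 were so in Vc-, against 2.17% and 0.558% over all genes.

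Most of the neural genes called in both also carried H3K27me3. H3K27me3 of both conditions overlapped the marked stretch at 15 of the 17 neural genes and at 2311 of the 13625 genes called in both. Among genes with a mean length up to 2.5 kb and H3K27me3 in both conditions, 5.03% of 1670 were at least 2 times as long in Vc+ and 1.02% in Vc-. Among genes with a mean length over 2.5 kb, 0.814% of 5771 were so in Vc+ and 0.104% in Vc-. The median log2 ratio of those 1670 short, Polycomb-marked genes was 0.14, against 0.36 for the neural genes and 0.13 over all genes. The part of length and Polycomb in the neural values was not tested. Potassium channel genes, chosen by symbol, are also short and mostly Polycomb-marked. Of 64 called in both, 46 had H3K27me3 in both conditions, 7 were at least 2 times as long in Vc+ and 1 in Vc-, with a median log2 ratio of 0.00.

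Genes of the histone methylation machinery were marked in both conditions. Of 19 measured writers and erasers of H3K4 methylation, 17 were called in both, and SETD1B and PRDM9 in neither. Of the 17, 10 were longer in Vc+ and 4 in Vc-, with a median log2 ratio of 0.10. All 19 measured Polycomb and H3K27 genes were called in both, with a median log2 ratio of 0.00. KDM6B, an H3K27 demethylase, had 11.2 kb in Vc+ and 10.0 kb in Vc-, in 2 islands each. Of 16 genes of vitamin C uptake and of vitamin C-dependent enzymes, 14 were called in both, and the ascorbate transporters SLC23A1 and SLC23A2 in neither. TET1 had 4.0 kb in Vc+ and 3.8 kb in Vc-, and SLC2A1, the glucose carrier that also takes up oxidised vitamin C, had 5.8 kb and 4.0 kb. Longer in Vc+ were 11 of the 14 and longer in Vc- were 3, against 57.8% and 26% of all genes called in both. Their median log2 ratio was 0.17, against 0.13 over all genes called in both.

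Antigen presentation genes had the largest share of differing calls among the named lists. Of 18 genes, 5 were called in both, HLA-E, TAP1 and PSMB9 in Vc+ alone, HLA-B and HLA-C in Vc- alone and 8 in neither. Called in Vc+ alone were thus 3 of 18, against 1.2% of all genes, and in Vc- alone 2 of 18, against 0.763%. TAP1, the peptide transporter, and PSMB9, an immunoproteasome subunit, share 1 Vc+ island of 0.8 kb with a score of 21.4, so they are not separate observations. HLA-E, a non-classical molecule, had a Vc+ island of 1.4 kb with a score of 27.6. HLA-B and HLA-C, classical molecules, had Vc- islands of 1.4 kb and 1.2 kb with scores of 24.2 and 15.4. HLA genes are near-identical in sequence and vary between genomes, so how reads were shared among them is uncertain. Differing calls were also frequent among their neighbours, counted after those calls were seen. Between HLA-F and TAPBP on chromosome 6, 116 other protein-coding genes without an HLA symbol were measured, of which 46 were called in both, 5 (4.31%) in Vc+ alone, 14 (12.1%) in Vc- alone and 51 in neither. The 5 of Vc+ alone were ATF6B, GPSM3, PBX2, PPT2 and PRRT1, and those of Vc- alone included BAG6, CSNK2B, DDR1, MDC1 and NEU1. Several of these genes lie side by side and share an island. B2M, the common light chain, had 1.8 kb in Vc+ and 2.2 kb in Vc-.

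Housekeeping genes and families chosen by symbol were read in the same way. All 14 measured housekeeping genes were called in both, with a median log2 ratio of 0.21. Of 77 ribosomal protein genes 75 were called in both and RPS9 in Vc- alone, and of 467 zinc finger genes 421 were called in both, 2 in Vc+ alone and 1 in Vc- alone. Olfactory receptor genes were called in neither library at 383 of 389, and keratin genes at 45 of 50. Of 39 HOX genes 30 were called in both, HOXC8 and HOXC10 in Vc+ alone and 7 in neither. Of 76 histone genes 61 were called in both, 42 of them longer in Vc+ and 15 longer in Vc-, and those with at least 5 kb numbered 30 in Vc+ and 22 in Vc-. Many histone genes stand close together and share islands. Their median log2 ratio was 0.16, against 0.13 over all genes. Of 42 collagen genes 30 were called in both, with 21 longer in Vc+ and 3 in Vc- and a median log2 ratio of 0.14. Collagen genes COL16A1 and COL3A1 were called in Vc- alone and COL22A1 in Vc+ alone.

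The unmatched Vc+ islands with the highest scores lay inside protein-coding genes (6 of the first 12), at their starts or span ends (4) or outside genes (2). The first was an island of 1.4 kb inside LRRC4B, a synaptic adhesion gene, 16.0 kb from its start, with a score of 76.1 that put it within the top 47.5% of the list. Next came an island of 1.6 kb inside SSBP4, with a score of 46.7, whose nearest Vc- island was 0.8 kb away. CAMK2B, a calmodulin-dependent kinase of neurons, had an island of 0.8 kb at the start printed above, with a score of 45.2, H3K27me3 in both conditions and the nearest Vc- island at 14.6 kb. TCFL5, a bHLH factor of the testis, had an island of 2.2 kb with a score of 41.6, no H3K27me3 and the nearest Vc- island at 16.8 kb. PRR35 and the globin gene HBA2 had islands of 1.0 kb with H3K27me3 in both conditions and scores of 38.4 and 36.2. HBA2 has a near-identical copy, HBA1, which was called in both libraries. The others among the first 12 lay inside CPLX2, MANEAL, SKIL and FLRT1, near TLX1 and near LOC124900476.

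Of the 12 unmatched Vc- islands with the highest scores, 5 lay inside protein-coding genes, 3 at a gene start and 4 outside genes. The first was an island of 1.0 kb inside TTBK1, a tau kinase gene, with a score of 68.1 that put it within the top 51.9% of the list. HIF3A, a hypoxia-inducible factor, had an island of 1.2 kb at the start printed above, with a score of 49.0, and the nearest Vc+ island lay at 1.2 kb. A gene is called at any of its listed starts, and HIF3A is not among the 146 genes called in Vc- alone. SLC26A8, an anion transporter of sperm, had an island of 1.8 kb with a score of 39.0, and the nearest Vc+ island again lay at 1.2 kb. The others lay inside DENND2D, CTBP2, PRMT2 and TYR, at LOC105376956, and outside genes with WDR38, RPN1, SP3 and USF3 as the nearest.

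Some matched islands differed widely in extent. At the end of NOS3, the endothelial nitric oxide synthase, where ATG9B overlaps it, an island of 7.4 kb in Vc+ with a score of 52.6 faced one of 0.8 kb in Vc- with a score of 14, a log2 ratio of 3.21. The start of NOS3 had 2.0 kb in both. HELT, a bHLH factor of midbrain neurons, had 2.6 kb in Vc+ and 0.2 kb in Vc-, and SLITRK3, a synaptic adhesion gene, had 2.2 kb and 0.4 kb, both with H3K27me3 in both conditions. MFHAS1 had 2.6 kb in Vc+ and 0.4 kb in Vc-. In the other direction, DVL1, a Wnt pathway adaptor, had 0.4 kb in Vc+ and 2.2 kb in Vc-. ANGPT1, the TEK ligand, had 0.8 kb and 3.0 kb, PTPN3 had 0.8 kb and 3.0 kb, and GIMAP5, a GTPase of lymphocytes, had 0.6 kb and 2.6 kb. The Vc- island of HELT lay 1.91 kb from its start, so the gene was called in Vc+ alone, and the Vc+ island of PTPN3 lay 1.29 kb from its start, so that gene was called in Vc- alone. The 12 islands that were widest in Vc+ relative to Vc- and the 12 of the other direction had scores of 2.56 to 52.6 in Vc+ and 2.15 to 50.8 in Vc-, which is below the median of each list (70.1 and 73.1).

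The widest islands lay outside ordinary genes and were shared. A block on chromosome 1 was 91.4 kb in Vc+ (143184601 to 143276000) and 2 islands of 66.0 kb and 25.2 kb in Vc-. A block on chromosome 10 was 75.2 kb in Vc+ (41841201 to 41916400) and 73.6 kb in Vc- (41842801 to 41916400), and one on chromosome 4 was 65.4 kb (49091201 to 49156600) and 65.6 kb (49091001 to 49156600). An island of 40.4 kb in both libraries (chromosome 1, 228608201 to 228648600) covered the 5S ribosomal RNA gene cluster and the start of RHOU. On chromosome 21, islands of 36.0 kb in Vc+ and 30.4 kb in Vc- lay over ribosomal RNA genes. The 10 widest of each list all overlapped H3K27me3 of both conditions, and 9 of each 10 lay within 5 Mb of a gene-free gap. The inputs were not used here, so the part of reads from repeated sequence in these blocks was not tested.

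Among islands at protein-coding starts outside those zones, a list made after the values were seen, the 5S block came first in both. Leaving out the zones also removed GATA6 and KDR, with 14.2 kb and 13.2 kb in Vc+. Next in Vc+ were islands that spanned HOXB3 to HOXB6 with 21.4 kb, where 3 Vc- islands summed to 19.2 kb, and HOXB7 to HOXB9 with 21.0 kb, where 5 Vc- islands summed to 22 kb. FLI1, RUNX1T1, IGF2BP3, GATA2, ERG and TAL1 were among the first 12 in Vc+. In Vc- the next were DLL4, MEIS1, FLI1, MECOM, GATA3, GATA2 and HAPLN1. The widest 5% of each list, 1096 islands of at least 4800 bp in Vc+ and 1219 of at least 4200 bp in Vc-, overlapped one of the other list's widest in 807 cases (73.6%) and 816 cases (66.9%). At protein-coding starts lay 86.5% of these in Vc+ and 88.3% in Vc-.

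Inside genes and away from listed starts, both libraries shared further broad islands. Within CEP85L, whose span also surrounds the cardiac gene PLN, an island was 10.0 kb in Vc+ and 8.8 kb in Vc-. Within GATA4, away from both ends, one was 9.6 kb in Vc+ and 8.2 kb in Vc-, and within ETS1, an ETS factor of endothelium and blood, one was 7.0 kb and 6.6 kb. Within SKIDA1 one was 8.0 kb and 7.4 kb. The promoter table does not hold each start of each gene, so such islands may lie at starts that were not listed. An unmatched Vc+ island of 6.0 kb with a score of 20.5 lay inside FLI1, 25.7 kb from the nearer end of its span and 0.2 kb from the nearest Vc- island.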

How the data were processed

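H3K4me3 and H3K27me3 islands of 4 libraries were used, and the 2 inputs were not used here. Samples were grouped by the Vc sign and antibody in their labels, with 1 library a group. The protocol in the labels names H3K27me3 antibodies alone, while the antibody field names both marks. The submitters' processing notes list the tools Bowtie2, SICER and deepTools and the builds hg38 and GRCh38, and give no version, role or setting. The score of each island is the authors' deposited value, from 2.00 to 309 and then 1000, and it was used to rank islands within a list. As read from the values, each width is a multiple of 200 bp and neighbouring islands are separated by 400 bp or more. Depth and read counts are not given in the sources used here. The deposited coordinates are zero-based with inclusive ends and were converted to the numbering of a genome browser.

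Islands were matched by an overlap of at least 1 bp. Genes came from RefSeq GRCh38.p14, 19126 protein-coding genes on chromosomes 1 to 22. Of these, 15101 had a start in the promoter table (21156 starts), and the 4025 without one were read at both ends of their span. A gene was called where an island overlapped 1 kb on either side of a start or end. Marked length is the length of islands within the outer borders of the widest islands at the gene in both libraries. Exons, introns and untranslated regions were not told apart. The gene lists, 16 by name and 10 by symbol pattern, the members and the rule for named islands were chosen with earlier results of these data known. That rule took the 12 highest-scoring unmatched islands, the 10 widest islands, the 12 largest width ratios each way among uniquely matched islands of at least 2 kb in 1 library, the 10 widest shared islands inside and outside genes, list members with differing calls, and GATA2 and RUNX1. List members shown as examples besides these were chosen after their values were seen. Listed genes on chromosomes X and Y were not analysed here. Intervals are exact Clopper-Pearson at 95%. No test between conditions was made. Alternatives covered score thresholds, equal island number or covered length, overlap rules, windows and gene sets. Overlaps, reciprocal overlaps and shared length of the H3K4me3 lists were checked against bedtools 2.31.1. Copies of the Vc- list with planted changes were checked against those changes. Distances were not checked in this way. Python 3.11.15, numpy 2.4.6, pandas 2.3.3, scipy 1.17.1 and matplotlib 3.10.9 were used.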

Additional observations from a re-analysis of the deposited data

How the results depend on the processing

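The median log2 width ratio of 0.12 stayed between 0.11 and 0.12 under each alternative that gives it. Those alternatives changed which islands were taken and left their borders as deposited. The steady ratio therefore says nothing about depth or the calling of islands. The settings below moved other values (Vc+ first, then Vc-). The share of islands with a match, 88.2% and 88.5%, was 93.8% and 92.5% at a score of at least 10, 97.8% and 81.0% at equal covered length, 81.8% and 80.8% when each island had to overlap by 50% of its own width, 89.8% and 89.6% with a gap of up to 1 kb allowed, and 90.5% and 90.9% without islands within 5 Mb of a gene-free gap, a setting chosen after seeing the data. At equal island number it was 89.2% in Vc-. The Jaccard index of 68.8% was 73.2% at a score of at least 10, 70.7% at equal covered length and 70.6% without the gap zones. The share of unmatched islands in the lower 50% by score, 99.96% and 100%, was 94.1% and 94.2% under reciprocal overlap, and 100% in Vc+ at a score of at least 10. The share at protein-coding starts, 61.7% and 60.9%, was 69.7% and 67.9% at a score of at least 10, 60.7% and 59.7% with a window of 500 bp, 63.6% and 62.8% with 2 kb, 67.5% and 66.7% with long non-coding RNA genes added, and 65.1% and 64.3% without the gap zones. At equal island number it was 61.6% in Vc-. Genes called in Vc+ alone and in Vc- alone, 229 and 146, became 114 and 325 at equal covered length, because that setting removes Vc+ islands, and 398 and 310 with long non-coding RNA genes added. No direction is therefore read from that count. Of 65 values under alternatives 33 stayed within the interval or within 1.5 times of the count. The width ratio with a gap of 1 kb was not run. No paired analysis was possible because each condition has 1 library. Without read counts, what depth limits cannot be computed. Repeat cultures, which would show how stable a call is, are not among the libraries used.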
